A study of Mus musculus with 5 samples.

Results

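The genes described here belong to the bone morphogenetic protein (BMP) pathway. They comprise the ligands Bmp2, Bmp4, Bmp5 and Bmp7 and the target genes Id1, Id2, Id3, Smad6, Msx1 and Msx2, and were chosen by name. These are 10 of the 24411 genes in the deposited table, and all 10 were found in it. They were followed in single cells taken from the blood of wild type C57BL/6 mouse embryos at embryonic day (E) 9.5, in 2 batches, and E10, in 3 batches. Per the labels, the heart was the source of the blood. The sort kept cells without the blood cell antigens TER119, CD41, CD43 and CD45, and a mouth pipette moved each into its own well. Libraries were of the STRT-seq type with changes. A barcode of 8 bases tells the cells apart and a unique molecular identifier (UMI) the molecules, so each count is a number of molecules. No treatment, transgene or mutant enters the series. The labels do not tell if each batch had its own litter, so the p-values measure the spread between these batches, which may be technical.

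BMPs are secreted ligands that bind pairs of type I and type II serine/threonine kinase receptors. The receptors phosphorylate Smad1, Smad5 and Smad9, which enter the nucleus with Smad4 and switch on targets such as the Id genes, the Msx homeobox genes and Smad6, an inhibitory Smad that feeds back on the pathway. In the embryo the pathway patterns limb and facial mesenchyme, the heart and the dorsal neural tube, and acts on neural crest cells and autonomic neurons.

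Of the 480 wells, 294 were kept as cells with at least 1000 genes and 30000 UMIs. They numbered 26 and 46 in E9.5 replicates 1 and 2, and 87, 72 and 63 in E10 replicates 1, 2 and 3. A kept cell held a median of 308924 UMIs, with a range of 31294 to 1407021. Cells were divided by 4 genes that are not among the 10: blood cells by Alas2, the erythroid haem synthesis enzyme, at 400 CPM (UMIs of the gene per 1000000 UMIs of the cell) or more, neural cells by Tubb3, a neuronal tubulin, at 150 CPM or Sox10, a neural crest factor, at 50 CPM, and Prrx1-positive cells by Prrx1, a limb and face mesenchyme factor, at 100 CPM. In the order of the batches there were 15, 21, 51, 16 and 22 Prrx1-positive cells (125 in all), 3, 7, 13, 4 and 19 neural cells (46), 1, 10, 1, 23 and 11 blood cells (46) and 7, 8, 20, 29 and 10 cells of no class (74). The 3 cells that met more than 1 rule were left out. Of the 46 neural cells, 18 met the Tubb3 limit alone, 16 the Sox10 limit alone and 12 both. Each class is a range of expression and not a cell type: 19 cells lay between 50 and 100 CPM of Prrx1 and 17 between 100 and 200 CPM.

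The classes matched their names by other markers, although neural cells also held mesenchyme transcripts. In blood cells 8 of 8 erythroid markers had a median of at least 20 CPM, in Prrx1-positive cells 8 of 8 mesenchyme markers, and in neural cells 7 of 8 neuron and 3 of 6 neural crest and glia markers. In neural cells 2 of 8 mesenchyme markers also had a median of at least 20 CPM. The 8 summed to 281 to 993 CPM by batch there, overlapping the 692 to 2470 CPM of Prrx1-positive cells. All 6 endothelial markers had a median of 0 in each class. Erythroid transcripts were also present in every other class, at a level that went with the batch. The 8 erythroid markers summed to 7059, 18132, 365, 59698 and 12549 CPM per Prrx1-positive cell in the order of the batches, and to 9584, 12864, 529, 55028 and 9255 CPM per neural cell, against 149231 to 209194 CPM in the 3 batches with at least 3 blood cells. Their part in the results below was not tested. Among the 294 cells 90 of 96 well numbers occurred in 2 or more batches, and no kept well repeated the profile of the same well number in another batch.

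A level is the mean CPM over the cells of a class in 1 batch. A fold change comes from UMI counts summed per class and batch, so it weights deep cells more than a level does. It was tested with edgeR's quasi-likelihood test on 13 sums with batch as a block, with Benjamini-Hochberg adjustment over the 12151 genes tested and a threshold of 0.05. Blood sums came from 3 batches, replicate 2 of E9.5 and replicates 2 and 3 of E10. Each of the 3 classes enters 2 of the 3 class comparisons, so these share sums. Fold changes of other genes within the same cells can move with the genes that defined the classes.

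On the mm10 genome (GRCm38.p6, RefSeq) Bmp2, Id1 and Bmp7 lie on chromosome 2 at 133552159-133562896, 152736251-152737410 and 172868012-172940321. Id3 lies on chromosome 4 at 136143822-136145392, Msx1 on chromosome 5 at 37820491-37824585, and Smad6 and Bmp5 on chromosome 9 at 63953076-64022085 and 75775365-75900316. Id2 lies on chromosome 12 at 25093799-25096092, Msx2 on chromosome 13 at 53466881-53472780 and Bmp4 on chromosome 14 at 46383525-46390669. Id2 and Id3 had the highest median correlation across Prrx1-positive cells of any pair among the 10, so the RefSeq sequence just upstream of their annotated starts is shown. Capitals mark GGCGCC, a sequence bound by BMP-activated Smads, and CAGAC or its reverse complement GTCTG, the Smad binding element. The window of Id2 is chr12:25096093-25096342 on the minus strand, and that of Id3 is chr4:136143572-136143821 on the plus strand, both 5′ to 3′ on the gene's strand.
Id2: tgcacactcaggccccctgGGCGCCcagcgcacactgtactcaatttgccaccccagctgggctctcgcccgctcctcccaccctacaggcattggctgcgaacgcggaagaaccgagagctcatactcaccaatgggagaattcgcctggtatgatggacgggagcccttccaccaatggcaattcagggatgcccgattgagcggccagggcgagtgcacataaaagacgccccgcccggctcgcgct
Id3: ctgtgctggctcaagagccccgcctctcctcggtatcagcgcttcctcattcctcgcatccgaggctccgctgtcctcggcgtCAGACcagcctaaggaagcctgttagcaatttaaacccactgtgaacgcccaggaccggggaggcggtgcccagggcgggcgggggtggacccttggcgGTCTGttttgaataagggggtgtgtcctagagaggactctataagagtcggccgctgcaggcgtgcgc
The Id2 window held 1 GGCGCC and 0 CAGAC, and the Id3 window 0 and 2. Searched on both strands, GGCGCC was present in 9.54% and CAGAC in 42.1% of 27025 promoter windows of the same length. RefSeq promoter windows were matched for 7 of the 10 genes, Bmp4, Bmp5, Id2, Id3, Smad6, Msx1 and Msx2. Of the other 5 windows only that of Bmp5 held a match, 1 CAGAC.

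Among the ligands, Bmp4 and Bmp7 were higher in Prrx1-positive cells than in blood and Bmp4 also higher than in neural cells, whereas Bmp2 and Bmp5 were found in few cells of any class. Bmp4, a ligand of limb and facial mesenchyme, stood at 51.9 and 158 CPM in Prrx1-positive cells of E9.5 replicates 1 and 2, and at 124, 28.9 and 45.1 CPM in E10 replicates 1, 2 and 3. In blood cells it stood at 1.03 CPM at E9.5 (replicate 2) and at 2.56 and 0.193 CPM at E10 (replicates 2 and 3). The groups did not overlap, and the lowest Prrx1-positive batch lay above every blood batch. The mean was 81.6 ± 56.3 CPM (SD, n = 5 batches) against 1.26 ± 1.20 (n = 3), and the summed counts were 27.1-fold higher (log2 fold change 4.76, SE 0.97, edgeR adjusted p = 0.00122). That fold rested partly on single batches: it was 17.7 with E9.5 replicate 2 left out, 62.7 with E10 replicate 2 left out and 15.9 with E10 replicate 3 left out, and passed the threshold each time. Neural cells held 3.51, 0.509, 21.3, 3.17 and 0.180 CPM of Bmp4 in the order of the batches. Each batch was lower than the Prrx1-positive cells of the same batch, and the highest neural value, 21.3 CPM in E10 replicate 1, lay below all 5 Prrx1-positive values. That value rested on few cells, with 2 of 13 at 50 CPM or more and a median of 1.89 CPM. The sums were 25.5-fold lower in neural cells (log2 fold change -4.67, SE 0.82, edgeR adjusted p = 0.00103), or 15.7-fold lower when E9.5 replicate 2 was left out, 54.2-fold when E10 replicate 1 was, and 14.03-fold when E10 replicate 3 was. Neural and blood cells gave a Bmp4 log2 fold change of 0.09 (SE 1.10), which did not pass (edgeR adjusted p = 0.968). Cells of no class, which entered no test, held 174, 59.1, 34.1, 4.46 and 1.56 CPM of Bmp4. In E9.5 replicate 1 they stood above the Prrx1-positive cells, and 1 cell at 961 CPM held 79.0% of that sum.

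Bmp7, a ligand that can pair with Bmp2 or Bmp4 in a dimer, stood at 27.0, 49.1, 31.7, 77.3 and 43.8 CPM in Prrx1-positive cells and at 2.59, 3.11 and 0.290 CPM in the 3 blood batches. The groups did not overlap, with means of 45.8 ± 19.8 CPM (SD, n = 5) and 2.0 ± 1.5 (n = 3). The sums were 20.2-fold higher in Prrx1-positive cells (log2 fold change 4.33, SE 0.75, edgeR adjusted p = 0.000283). Neural cells held 1.77, 20.2, 36.0, 15.6 and 17.7 CPM. They were above blood in each of the 3 batches compared, by 7.99-fold (log2 fold change 3.0, SE 0.73, edgeR adjusted p = 0.00478), although the neural value of E9.5 replicate 1 fell within the blood range. The neural level rested on few cells: 1 cell held 55.4% of the summed CPM in E9.5 replicate 2, 97.7% in E10 replicate 1, 94.2% in E10 replicate 2 and 57.6% in E10 replicate 3. With every cell thinned to 30000 UMIs that call was lost (log2 fold change 1.93, edgeR adjusted p = 0.133). Against Prrx1-positive cells neural Bmp7 was lower in 4 of 5 batches but did not pass (log2 fold change -1.34, SE 0.54, edgeR adjusted p = 0.182). Cells of no class held 17.3, 4.18, 44.3, 3.81 and 5.31 CPM of Bmp7, and in E10 replicate 1 both they and the neural cells stood above the Prrx1-positive cells.

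Detection per cell gave the same ordering for Bmp4. With each cell thinned to 30000 UMIs, a Bmp4 UMI was found in 66 of 125 Prrx1-positive cells, or 52.8% (exact Clopper-Pearson 95% interval 43.7 to 61.8%, which covers counting error only). The share was 8.70% of neural cells (2.42 to 20.8%) and 6.52% of blood cells (1.37 to 17.9%), which serve here as the level that other shares are set against. The part of free RNA in that level was not tested. Median depths before thinning were 277773, 279611 and 371308 UMIs in the 3 classes. Bmp7 was found in 39.2% of Prrx1-positive cells (30.6 to 48.3%), 15.2% of neural cells (6.34 to 28.9%) and 13.0% of blood cells (4.94 to 26.3%). Without thinning, Bmp4 had a UMI in 68.8%, 30.4% and 39.1% and Bmp7 in 64.0%, 30.4% and 50% of the 3 classes. Of the 125 thinned Prrx1-positive cells 27 held both Bmp4 and Bmp7, 39 held Bmp4 without Bmp7 and 22 held Bmp7 without Bmp4. At least 1 of the 4 ligands was found in 73.6% of them, against 26.1% of neural, 28.3% of blood and 37.8% of cells of no class. By batch the share of Prrx1-positive cells with a ligand ran from 46.7% in E9.5 replicate 1 to 95.2% in E9.5 replicate 2.

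Bmp2, another ligand of limb and heart, was no higher in detection in Prrx1-positive cells than in blood. A thinned UMI was present in 7 of 125 Prrx1-positive cells (5.60%), 2 of 46 neural cells (4.35%) and 7 of 46 blood cells (15.2%). The Prrx1-positive share was thus not above that of blood and is not read as expression across the class. Its levels of 10.6, 0.356, 4.82, 1.93 and 13.0 CPM in Prrx1-positive cells came from few cells: the 5 batches together had 23 cells with a Bmp2 UMI before thinning, and the highest cell held 252 CPM. In E10 replicates 1 and 3, 1 cell each, at 231 and 252 CPM, held 94.1% and 88.2% of the summed CPM. The highest blood cell held 104 CPM. Cells of no class had batch means of 27.4, 27.8, 4.77, 19.6 and 48.9 CPM, the highest of the classes in 4 of 5 batches, and there too 1 cell in each batch held 63.3% to 100% of the summed CPM. None of the 3 class comparisons passed for Bmp2 (edgeR adjusted p = 0.725 for Prrx1-positive against blood, 0.609 for neural against Prrx1-positive and 0.229 for neural against blood).

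Bmp5, a ligand of skeletal mesenchyme, had 1.55, 2.54, 0.282, 1.18 and 0 CPM in Prrx1-positive cells and too few UMIs to enter the fit. No UMI of it was found in 46 neural cells, and a count of 0 allows a share of cells with a UMI of up to 6.52%. A UMI was found in 9 of 125 Prrx1-positive cells before thinning. The highest cell of all, at 251 CPM, was a cell of no class in E10 replicate 3. The annotation places the antisense genes Gm15222 and Gm26903 opposite Bmp4 and Bmp5, Gm15217 opposite Bmp4, and Gm47723 on the strand of Bmp5. The strand of counting is not stated in the sources used here, so molecules of overlapping genes cannot be told apart.

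**Figure D1:**
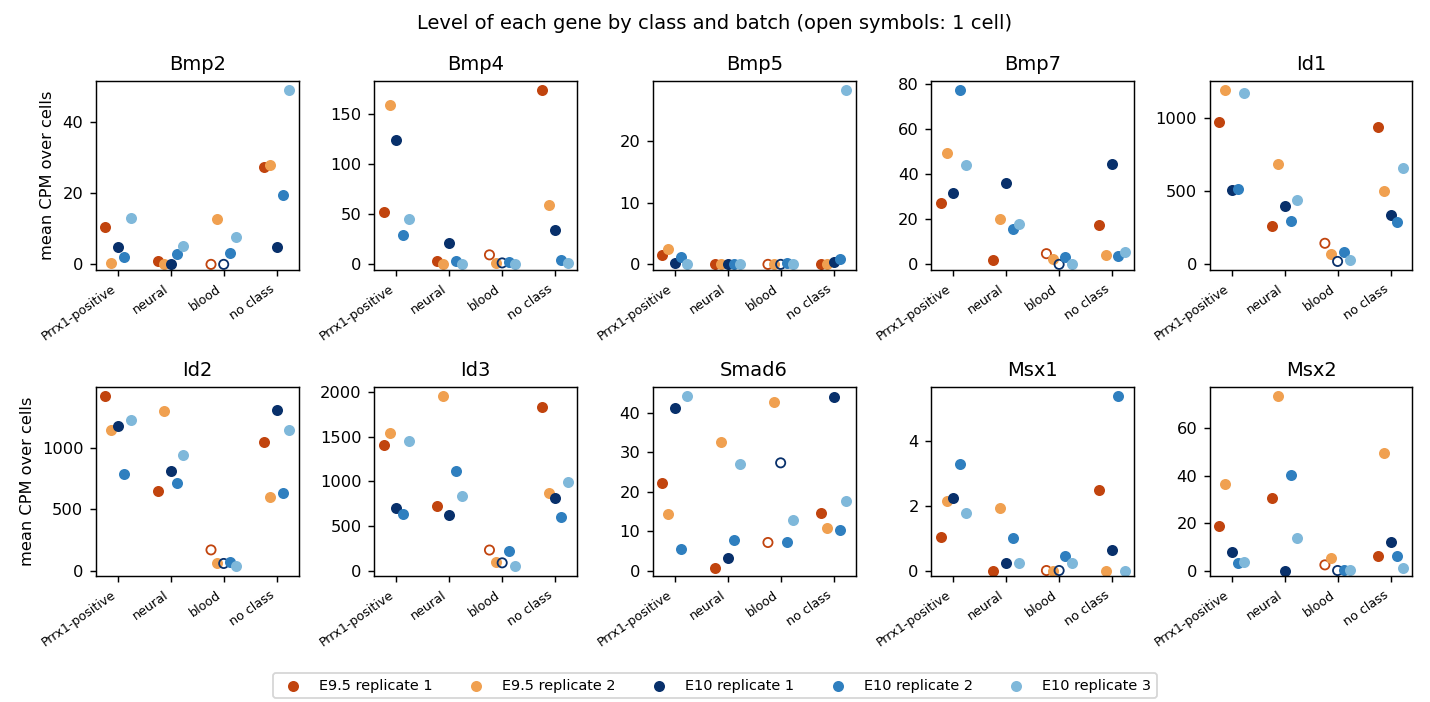
Each panel plots 1 gene, with the mean CPM over the cells of a class in 1 batch on a linear vertical axis that differs between panels and the 4 classes along the horizontal axis; colours are batches and open symbols are blood means of 1 cell. Bmp4 lies between 28.9 and 158 CPM in Prrx1-positive cells and at 21.3 CPM or less in neural cells, while the 3 Id genes lie at 261 CPM or more in both classes.

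The Id genes encode helix-loop-helix proteins without a DNA binding domain that hold back differentiation factors, and are direct targets of BMP-activated Smads. All 3 were abundant in Prrx1-positive and neural cells and low in blood. Id1 stood at 978, 1197, 509, 513 and 1172 CPM in Prrx1-positive cells, at 261, 687, 401, 298 and 439 CPM in neural cells, and at 73.1, 86.3 and 28.0 CPM in the 3 blood batches. No blood batch reached any batch of the other classes. Id2 stood at 1426, 1142, 1176, 788 and 1231 CPM in Prrx1-positive cells, 644, 1297, 812, 717 and 945 CPM in neural cells and 63.6, 72.8 and 36.6 CPM in blood. Id3 stood at 1411, 1548, 704, 629 and 1457 CPM, 722, 1961, 621, 1119 and 831 CPM, and 91.9, 217 and 53.0 CPM in the same order. Blood was lowest throughout, and for Id3 its highest batch was E10 replicate 2. Neural cells were not uniform for Id3, with medians of 246 CPM over cells with Tubb3 alone, 874 with Sox10 alone and 1156 with both. Cells with Tubb3 alone had Id3 means of 143 and 348 CPM in E10 replicates 1 and 3. In E9.5 replicate 2 and E10 replicate 2, with 2 such cells each, the means were 2629 and 1223 CPM. For Id2 the 3 medians were 975, 620 and 1173 CPM. These subsets were not compared by a test.

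Against blood, Prrx1-positive sums were 9.01-fold higher for Id1 (log2 fold change 3.17, SE 0.38, edgeR adjusted p = 5.74e-06). They were 11.8-fold higher for Id2 (3.56, SE 0.27, adjusted p = 2.92e-08) and 6.82-fold higher for Id3 (2.77, SE 0.39, adjusted p = 3.16e-05). Neural sums were 4.30-fold higher than blood for Id1 (2.11, SE 0.36, edgeR adjusted p = 0.000244), 9.0-fold for Id2 (3.17, SE 0.26, adjusted p = 7.60e-08) and 5.80-fold for Id3 (2.54, SE 0.38, adjusted p = 4.95e-05). Each direction held in 3 of 3 batches. E10 replicate 2 lowered the Id1 and Id3 folds: without it they were 14.1 and 11.9 in Prrx1-positive cells and 6.87 and 9.41 in neural cells. Every blood cell held UMIs of all 3 genes, and blood cells spread less around their batch mean than Prrx1-positive cells. The coefficient of variation of Id1, Id2 and Id3 was 23.7% to 43.3% in the 3 blood batches and 67.7% to 124% in Prrx1-positive cells of the same batches. The blood level of Id1 was 6.11%, 16.8% and 2.39% of the Prrx1-positive level in the 3 blood batches in order, that of Id2 5.57%, 9.23% and 2.97%, and that of Id3 5.93%, 34.5% and 3.64%. The 8 mesenchyme markers, summed, gave 5.29%, 13.96% and 2.02% in the same batches. Single markers among the 8 ran from 1.71% to 11.1%, from 7.80% to 38.2% and from 0.855% to 4.08%. In the other direction the erythroid markers of Prrx1-positive cells reached 12.2%, 30.8% and 6.00% of the blood level. The part of free RNA in the blood values was not tested.

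**Figure D2:**
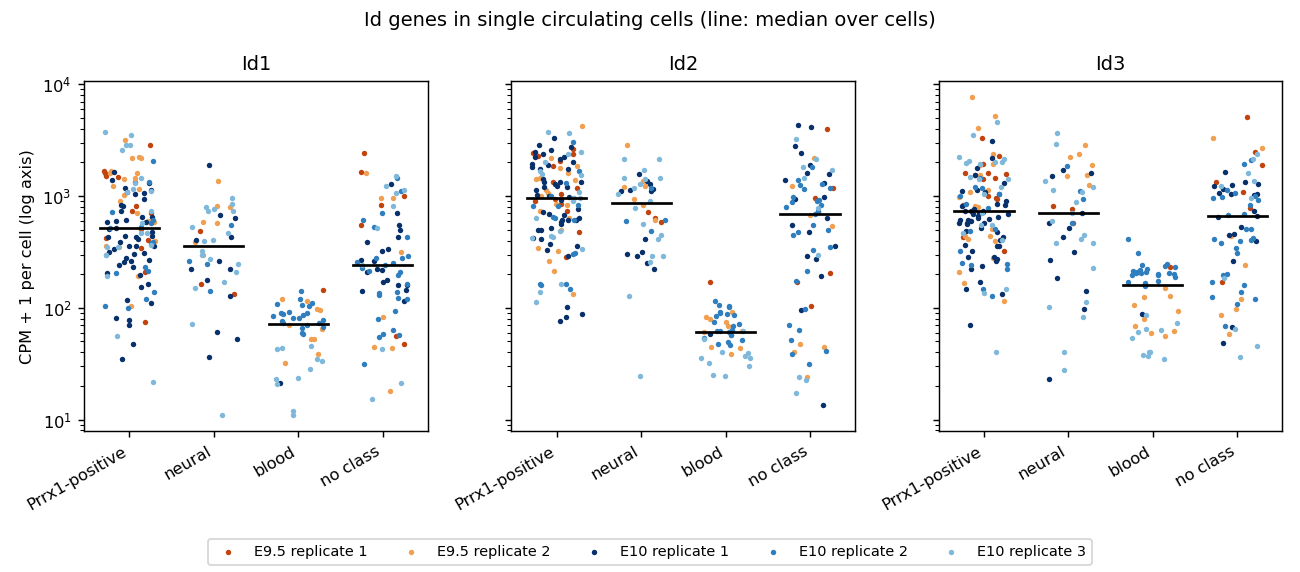
Each point is 1 cell, with CPM plus 1 on a log axis for Id1, Id2 and Id3, cells grouped by class and coloured by batch, and a line at the median over all cells of the class. The medians in Prrx1-positive cells are 516, 952 and 727 CPM, those in neural cells 355, 863 and 705 CPM, and those in blood cells 70.6, 60.2 and 160 CPM. Blood Id3 differs by batch, with medians of 85.4 CPM in E9.5 replicate 2 and 205 and 53.1 CPM in E10 replicates 2 and 3.

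Id1 was also lower in neural than in Prrx1-positive cells, in 5 of 5 batches, with means of 417 ± 167 and 874 ± 342 CPM (SD, n = 5 each) that overlapped between batches. The sums differed by 2.09-fold (log2 fold change -1.07, SE 0.28, edgeR adjusted p = 0.0232). The call was lost without E9.5 replicate 1 (adjusted p = 0.125), without E9.5 replicate 2 (0.0681), with sums of at least 10 cells (0.544) and without the batch block (0.0693). Id2 and Id3 did not pass between these classes (log2 fold changes -0.39, SE 0.19, edgeR adjusted p = 0.302, and -0.23, SE 0.28, adjusted p = 0.749). A difference between the Id genes in this respect was not tested. Cells of no class held 293 to 938 CPM of Id1, 597 to 1313 of Id2 and 596 to 1833 of Id3 by batch, within or near the ranges of the Prrx1-positive and neural cells.

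Smad6, the inhibitory Smad, did not separate blood from the other classes, and a difference from the Id genes was not tested. It stood at 22.3, 14.3, 41.2, 5.50 and 44.3 CPM in Prrx1-positive cells, 0.715, 32.7, 3.22, 7.63 and 27.0 CPM in neural cells and 42.8, 7.13 and 12.8 CPM in blood. The 3 classes overlapped, and no comparison passed (log2 fold change 0.17, SE 0.94, edgeR adjusted p = 0.927 for Prrx1-positive against blood). On simulated data that comparison found 46 of 100 genes changed 4-fold and 82 of 100 changed 16-fold. A gene that did not pass is therefore not shown to be alike in the classes. Thinned cells with a Smad6 UMI made up 28.8% of Prrx1-positive (21.1 to 37.6%), 21.7% of neural (10.9 to 36.4%) and 23.9% of blood cells (12.6 to 38.8%). A single blood cell at 287 CPM held 67.0% of the blood sum in E9.5 replicate 2.

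The homeobox gene Msx2, a BMP target of neural crest and skull mesenchyme, stood at 18.9, 36.4, 7.61, 3.16 and 3.53 CPM in Prrx1-positive cells, 30.4, 73.5, 0, 40.0 and 13.8 CPM in neural cells and 5.41, 0.211 and 0.390 CPM in blood. Both other classes were above blood in each of the 3 batches compared, but batch values overlapped. Neural sums were 11.8-fold higher than blood (log2 fold change 3.56, SE 1.12, edgeR adjusted p = 0.0241). This call was lost when E9.5 replicate 2 was left out (log2 fold change 4.34, adjusted p = 0.107), or E10 replicate 2 (2.81, adjusted p = 0.0793), or E10 replicate 3 (3.36, adjusted p = 0.101). It was also lost with sums of at least 10 cells (2.15, adjusted p = 0.443), thinned cells (2.93, adjusted p = 0.0922) or no batch block (2.93, adjusted p = 0.135). The Prrx1-positive comparison missed the threshold (log2 fold change 3.02, SE 1.15, edgeR adjusted p = 0.0670) and passed it without E10 replicate 1 (2.54, adjusted p = 0.0328). The neural level came from few cells, with a thinned Msx2 UMI in 8 of 46 and 1 cell holding 97.6% of the summed CPM in E9.5 replicate 1, 83.1% in E10 replicate 2 and 96.5% in E10 replicate 3. Msx1, its close relative, was scarce, at 1.03 to 3.29 CPM in Prrx1-positive cells, 0 to 1.91 in neural cells and 0 to 0.440 in blood. A thinned UMI was present in 4.80% of Prrx1-positive cells (1.78 to 10.2%), 2.17% of neural and 2.17% of blood cells (0.0550 to 11.5% each), and Msx1 had too few UMIs to enter the class fit.

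Counted over the 10 genes, 5 were higher in Prrx1-positive than in blood cells (Bmp4, Bmp7, Id1, Id2 and Id3), none was lower, 3 did not pass and 2, Bmp5 and Msx1, were not tested. Of all genes tested 21.0% passed in this comparison, 11.2% higher and 9.86% lower. Between neural and blood cells 5 were higher (Bmp7, Id1, Id2, Id3 and Msx2) and none was lower, where 24.3% of all genes passed, 12.5% higher and 11.8% lower. Between neural and Prrx1-positive cells 2 were lower (Bmp4 and Id1) and none was higher, where 5.74% of all genes passed, 3.09% higher and 2.66% lower. Over the 8 genes that passed the filter on low counts, the median log2 fold changes were 3.10, 2.32 and -1.10, against 0.22, 0.15 and -0.08 over all genes tested. A gene could pass that filter through 1 class alone, and the 10 were chosen with earlier results of these data known. These counts and medians therefore only describe the genes that passed the filter.

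**Figure D3:**
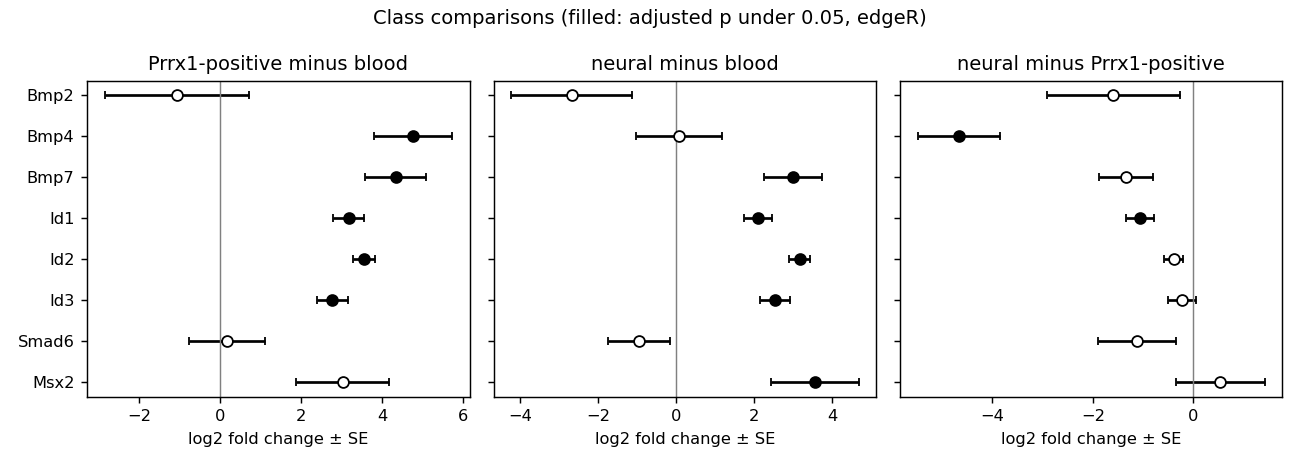
Points are log2 fold changes of the 8 genes that passed the filter, with bars of 1 standard error, for the 3 class comparisons; filled points passed edgeR's adjusted threshold of 0.05. Bmp4 is separated in the comparisons with Prrx1-positive cells (4.76 and -4.67) and close to 0 between neural and blood cells (0.09), and the 3 Id genes are higher than blood in both.

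The Id genes moved together from cell to cell. Across Prrx1-positive cells, the Spearman correlation of Id2 with Id3 had a median of 0.57 over the 5 batches (0.43 to 0.69), that of Id1 with Id3 0.56 (0.41 to 0.69) and that of Id1 with Id2 0.49 (0.24 to 0.77). With cells thinned to equal UMIs the ranges for Id2 with Id3 and Id1 with Id3 were 0.41 to 0.78 and 0.43 to 0.68, and that for Id1 with Id2, the weakest pair, was 0.21 to 0.66. These are descriptions over 15 to 51 cells of 1 library each, scaled by the same cell totals. Bmp4 did not run with the Id genes: its correlation with Id3 was -0.58, -0.55, -0.01, 0.34 and -0.44 in the order of the batches, and with Id1 -0.44, -0.52, -0.09, 0.44 and -0.35. E10 replicate 2 had the opposite sign, and E10 replicate 1, with the most cells, was near 0. In Prrx1-positive cells with a thinned Bmp4 UMI, mean Id1 was 336, 942, 463, 635 and 860 CPM, against 1211, 1708, 580, 440 and 1484 CPM in cells without one. Id1 was lower in cells with Bmp4 in 4 of 5 batches. The mean log2 difference was -0.66 ± 0.86 (SD, n = 5) for Id1, -0.55 ± 0.85 for Id3 and -0.18 ± 0.38 for Id2. Mean Smad6 and Msx2 were higher with Bmp4 in 4 of 5 batches, by 0.31 ± 0.67 and 0.82 ± 1.27. Medians over cells did not show this for Msx2. They were 2.47 against 2.63 and 0 against 9.15 CPM at E9.5, and 0 in both groups of each E10 batch. Smad6 medians were higher with Bmp4 in E9.5 replicate 1 and E10 replicates 2 and 3. They were lower in E10 replicate 1 (7.74 against 20.3 CPM) and 0 in both groups of E9.5 replicate 2. None of the 5 genes passed an exact sign-flip permutation test over the batches (two-sided p = 0.1875 for Id1, Id3 and Msx2, 0.4375 for Id2 and 0.375 for Smad6, adjusted over the 5 genes to 0.3125 for the first 3 and 0.4375 for the others). The smallest p this test allows is 0.0625.

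**Figure D4:**
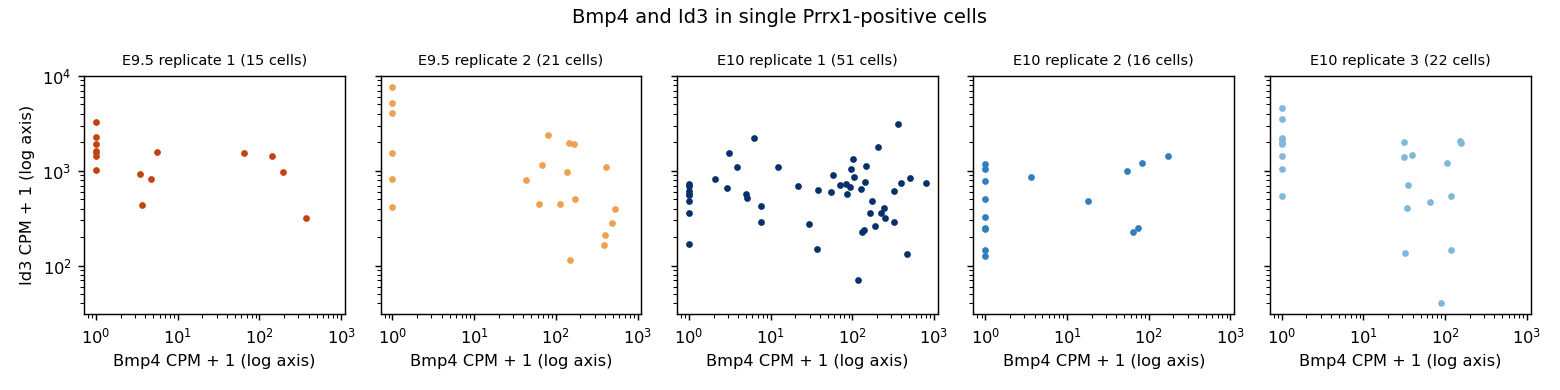
Each point is 1 Prrx1-positive cell, with Bmp4 and Id3 as CPM plus 1 on log axes and 1 panel for each batch. High Id3 is seen in cells at 0 CPM of Bmp4 as well as in cells above it, and the Spearman correlation ranges from -0.58 in E9.5 replicate 1 to 0.34 in E10 replicate 2.

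Between stages no gene passed. The E10 and E9.5 sums of Prrx1-positive cells were compared over 11528 genes and those of neural cells over 10201 genes, without a batch term because a batch holds 1 stage, and 0 genes (0%) passed edgeR's adjusted threshold in each. At an unadjusted p under 0.05 there were 1173 and 608 genes, and DESeq2 called 139 and 44. On simulated data the Prrx1-positive stage fit found 39 of 100 genes changed 4-fold and 70 of 100 changed 16-fold. The 0 calls therefore do not show that the stages are alike. Of the 10 genes 9 were tested in Prrx1-positive cells and 6 in neural cells. Both E9.5 batches of Prrx1-positive cells lay above all 3 E10 batches for Msx2 (18.9 and 36.4 against 7.61, 3.16 and 3.53 CPM). The same held for Bmp5, which was not tested in this fit (1.55 and 2.54 against 0.282, 1.18 and 0 CPM). How many of all genes separate in this way was not counted, so the separation is not read as a trait of Msx2. The Msx2 log2 fold change in Prrx1-positive cells was -2.58 (SE 0.66, edgeR unadjusted p = 0.00264, adjusted p = 0.425), and DESeq2 called the gene at -2.61 (adjusted p = 0.0178). Thinned cells with an Msx2 UMI made up 33.3% and 38.1% of Prrx1-positive cells at E9.5 and 5.88%, 12.5% and 9.09% at E10. The means of 35.7 ± 3.37% (SD, n = 2) and 9.16 ± 3.31% (n = 3) gave a two-sided exact permutation p of 0.1, the smallest that 2 batches against 3 allow, and 0.4 after adjustment over the 8 genes tested. Bmp5 shares in Prrx1-positive cells, 6.67% and 4.76% at E9.5 and 0% in each E10 batch, gave the same exact permutation p before and after adjustment. In neural cells the Msx2 shares were 33.3% and 71.4% at E9.5 and 0%, 25.0% and 5.26% at E10 (exact permutation p = 0.1, adjusted 0.8), from 3 to 19 cells a batch. The make-up of the class differed by batch: all 3 cells of E9.5 replicate 1 met the Sox10 limit alone. In E10 replicate 3, 10 of 19 met the Tubb3 limit alone. A thinned Msx2 UMI was found in 1 of 18 cells with Tubb3 alone, 5 of 16 with Sox10 alone and 2 of 12 with both. In E10 replicate 1 it was found in 0 of 6 with Sox10 alone. The part of this make-up in the stage shares was not tested. The Msx2 log2 fold change in neural cells was -2.31 (SE 1.36, edgeR adjusted p = 0.844).

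Id3 in Prrx1-positive cells had a log2 fold change of -0.84 (SE 0.29, edgeR adjusted p = 0.438) and E10 replicate 3, at 1457 CPM, lay within the E9.5 values. Differences that also did not pass were log2 fold changes of -0.71 for Id1, -0.29 for Id2, -0.68 for Bmp4 and 0.43 for Bmp7 (edgeR adjusted p from 0.544 to 0.851). Erythroid transcripts in Prrx1-positive cells did not separate the stages, since E10 replicate 1 had the lowest and E10 replicate 2 the highest sum.

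**Figure D5:**
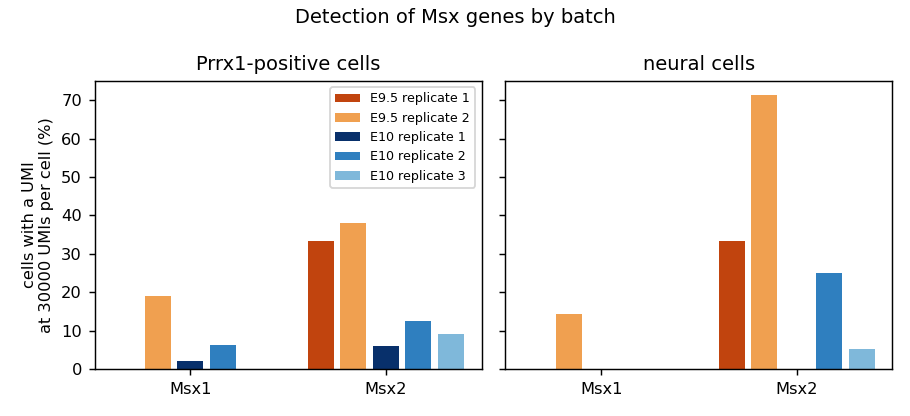
Bars give the percent of cells with a UMI of Msx1 or Msx2 in each batch after thinning to 30000 UMIs, in Prrx1-positive cells on the left and neural cells on the right, with E9.5 batches in red and orange and E10 batches in blues. For Msx2 both E9.5 bars stand above all E10 bars in each class, at 33.3% or more against 25.0% or less, where the smallest p the exact test allows is 0.1. In neural cells the 33.3% of E9.5 replicate 1 is 1 of 3 cells and the 25.0% of E10 replicate 2 is 1 of 4 cells. The mean Msx2 levels of these 2 batches lay the other way, at 30.4 and 40.0 CPM.

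Of 46 further genes of the pathway, all in the table, 34 were tested in the class fit. Against blood 18 were higher in Prrx1-positive cells by edgeR's adjusted threshold and none was lower, where 11.2% of all genes tested were higher and 9.86% lower. Values in brackets are log2 fold changes with their SE. Among receptors and co-receptors 5 of 9 tested were higher, led by the type II receptor Acvr2b (log2 fold change 4.37, SE 0.52, at 63.9 ± 14.3 CPM over 5 batches against 2.66 ± 3.16 over 3) and the co-receptor Rgma (4.08, SE 1.27). The 4 Smads tested were all higher, led by Smad1, which carries the signal (2.85, SE 0.59, at 41.3 ± 25.1 CPM against 3.36 ± 1.79), and the inhibitory Smad7 (2.80, SE 0.53). Of the antagonists 3 of 9 were higher, led by Grem1, a secreted BMP inhibitor of limb mesenchyme (4.77, SE 1.24), and Fstl1, a secreted glycoprotein (3.39, SE 0.42). Other targets were higher in 6 of 10 cases, led by the limb and heart factor Tbx3 (3.82, SE 0.57) and Gata3 (3.63, SE 0.69). Neither of the 2 other ligands tested passed. The median over the 34 genes was 2.38, beside 0.22 over all genes tested. These genes too could pass the filter on low counts through 1 class alone, and the lists were chosen with earlier results of these data known. The counts and the median therefore only describe the genes that passed the filter.

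Neural cells showed the same number of higher genes against blood, 18 of 34, where 12.5% of all genes tested were higher. The same limits hold for this count. They included Acvr2b (4.55, SE 0.53) and Bmpr2 (3.17, SE 0.56), both type II receptors, Smad1 (3.51, SE 0.60) and Smad7 (1.84, SE 0.52), Fstl1 (1.83, SE 0.40) and Bambi, a decoy receptor (1.26, SE 0.45). Among the other targets the sympathetic neuron factors Gata3 (6.28, SE 0.73) and Hand2 (5.12, SE 0.72) were highest. Between neural and Prrx1-positive cells 5 of the 34 genes passed, where 5.74% of all genes tested did. None of the 9 receptors or 4 Smads was among them, which is close to that share and no result about these lists. Hand2 (2.85, SE 0.58) and Gata3 (2.66, SE 0.50) were higher in neural cells, and Grem1 (-5.87, SE 1.07), the cartilage factor Sox9 (-2.42, SE 0.51) and Fstl1 (-1.56, SE 0.30) were lower. Grem1 was uneven, with 10 of 125 thinned Prrx1-positive cells holding a UMI and 1 cell holding 29.8% of the summed CPM. No further pathway gene passed between stages in edgeR's test, of 32 tested in Prrx1-positive and 26 in neural cells.

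Over the 18 sums of at least 3 cells, including cells of no class, the genes most like each of the 10 were ranked by Pearson correlation of log2(CPM + 1) among 8621 genes with a mean of at least 10 CPM. The sums share batches and cell totals, and the values describe these sums only. The floor of 10 CPM was not applied to the 10 genes themselves: Bmp5, Msx1 and Bmp2 averaged 0.775, 1.12 and 6.55 CPM over these sums. How high the best of 8621 genes would reach by chance over 18 sums was not tested. Bmp4 was most like Epha4 (0.91), Ppfibp2 (0.89) and Pdgfra (0.89), the last a fixed mesenchyme marker. Id1 was most like Rab34 (0.92), Id3 (0.92) and Fam92a (0.91), Id2 like Fermt2 (0.96), Marcksl1 (0.96) and Zdhhc20 (0.95), and Id3 like Rhoc (0.95), Marcksl1 (0.93) and Idh2 (0.93). Marcksl1 stood near both Id2 and Id3. Bmp7 was most like Cdc42ep5 (0.85), Etaa1 (0.85) and Mvd (0.84), and Bmp2 like Pip4k2a (0.85), Ercc8 (0.78) and Golt1b (0.77). Msx2 was most like Gm1821 (0.83), Btf3l4 (0.80) and Tmed4 (0.78), Msx1 like Stag1 (0.83), Lef1 (0.78) and Nae1 (0.77), Smad6 like Xrcc5 (0.73), Tsnax (0.72) and Slc35a2 (0.71), and Bmp5 like Adss (0.68), Foxd2os (0.65) and Mul1 (0.64).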

How the data were processed

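The authors deposited 1 table of raw UMI counts per gene and cell, with 24411 genes, 95 spike-in rows that were dropped, and 480 columns of whole numbers. Columns were matched to the 5 batches by the batch number in their names. Per the submitters' processing notes, CASAVA 1.8, TopHat2 2.0.12 and HTSeq were used with mm10. Strand and HTSeq version are not given in the sources used here. From these deposited counts CPM per cell, class levels and sums per class and batch of at least 3 cells were computed. Sums were tested in edgeR 4.0.16 (R 4.3.3) with filterByExpr, TMM and glmQLFTest at an adjusted p of 0.05. Batch was a block in the class fit, because each batch gave more than 1 sum. A standard error is the log2 fold change over the square root of F. Detection used cells thinned to 30000 UMIs (seed 0). Permutation tests used scipy 1.17.1 under Python 3.11.15, and DESeq2 1.42.0 was an alternative. Alternatives covered scaling, filters, class limits, depth, the block and each replicate. The model was tested on simulated data. No doublet caller was run, since cells were picked singly.

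The 10 genes and the further lists were chosen with earlier results of these data known. The text names the 10, up to 2 further pathway genes per list and direction that passed with the largest change, and the 3 genes most like each member. Promoter sequences are RefSeq's. Kept cells held 7545865, 8380810, 44415774, 24267995 and 20181093 UMIs in the order of the batches, so E9.5 levels rest on fewer molecules and fewer cells.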

Additional observations from a re-analysis of the deposited data

Results flagged for a closer look

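Of 29 sets of 5 batch means (a gene in a class), 4 held a batch far from the rest by Dixon's criterion at 95%, where chance flags about 1 in 20 sets. Bmp4 in neural cells stood at 21.3 CPM in E10 replicate 1, against 3.51 CPM in the next batch. There 2 of 13 cells were at 50 CPM or more, and the median was 1.89 CPM. Bmp5 in cells of no class stood at 28.3 CPM in E10 replicate 3, against 0.940 CPM, and 1 cell held 88.6% of that sum. Smad6 in cells of no class stood at 44.1 CPM in E10 replicate 1, against 17.7 CPM, with a UMI in 14 of 20 cells. Msx2 in cells of no class stood at 49.4 CPM in E9.5 replicate 2, against 12.1 CPM, and 1 of its 8 cells held 65.6% of the sum.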

How the results depend on the processing

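The 5 higher genes of Prrx1-positive against blood cells numbered 5 to 6 over 21 alternatives. Neural against Prrx1-positive cells gave 2 genes, but 1 with sums of at least 10 cells and 1 with no replicate block. Neural against blood cells gave 5, but 3 with cells thinned to equal UMIs. The stage comparison of Prrx1-positive cells gave 0, but 1 with DESeq2, and that of neural cells gave 0 in all 16 alternatives. No direction of a called gene was reversed. Leaving out 1 replicate at a time gave 5 to 6 genes for Prrx1-positive against blood, 1 to 2 for neural against Prrx1-positive, 4 to 5 for neural against blood and 0 to 0 in both stage comparisons, where leaving out an E9.5 replicate leaves 1 sample that is assumed to vary like the others. The causes of these moves were not tested, other than fewer sums or fewer molecules by construction. Over all genes the calls ranged from 1294 to 3470 for Prrx1-positive against blood (2553 as reported), 421 to 1285 for neural against Prrx1-positive (698) and 1419 to 3889 for neural against blood (2958). In the stage comparisons they ranged from 0 to 156 and 0 to 93. Thinning moved the median log2 fold change of all genes by 0.12 and 0.14 in the comparisons with blood.

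Without the replicate block the class comparisons gave 5, 1 and 4 genes of the 10 (Prrx1-positive against blood, neural against Prrx1-positive, neural against blood). Stage sums cannot be paired because a batch holds 1 stage. Bmp7 in neural against Prrx1-positive cells passed only at a Prrx1 limit of 50 CPM (log2 fold change -2.24, edgeR adjusted p = 0.0437). Msx2 in Prrx1-positive against blood cells also passed with DESeq2, with no filter on low counts and at that limit (adjusted p = 0.0143, 0.0144 and 0.0468). A neural stage fit with at least 10 cells per sum could not be made, since no E9.5 batch had 10 neural cells, and leaving out repeated wells removed none. Low UMI numbers limit Bmp2, Bmp5 and Msx1 most.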
